A study of Homo sapiens with 6 samples.

Results

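Clusters of PAR-CLIP reads in the DNA between genes were examined in HEK293 cells, a human embryonic kidney line. They are the clusters that the authors' tables place in the region Intergenic and that overlap no GENCODE gene on either strand. In all, 175234 of 1717084 clusters met both conditions, and they are called intergenic clusters here. The clusters came from 3 gel slices of a FLAG-tagged GFP precipitate and from 2 replicates of FLAG-tagged HuR. The GFP slices G20, G35 and G45 were cut at about 20, 35 and 45 kDa and served as background, since GFP is not an RNA-binding protein. Each slice was a single library, so the slices are not replicates of each other.

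All libraries came from cells that stably carried a Dox-inducible HuR or GFP, so HuR was expressed from a transgene. The cells were grown with doxycycline and 4-thiouridine (4SU), crosslinked at long-wave UV and digested with RNase T1, which cuts after G, and the tagged protein was precipitated with the FLAG M2 antibody. A further library, Total, was made from lysate treated in the same way but without a precipitation and with rRNA depleted. Nothing in the sources used here says whether the HuR replicates came from separate cultures.

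In PAR-CLIP a crosslinked 4SU is read as C in place of T, and PARalyzer joins overlapping reads into groups (any read) and clusters. The study defined clusters by 5 or more reads and 2 or more conversion locations. HuR (ELAVL1) is an RNA-binding protein that is mostly nuclear and binds U-rich and AU-rich RNA in introns and 3′UTRs. RNA polymerase II does not stop at the end of a gene. It transcribes on past the poly(A) site, and the RNA made there, on the strand of the gene, is usually degraded. RNA can also start from promoters in the opposite direction and from enhancers, so transcripts between genes have several known sources.

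There were 5816 intergenic clusters among 38817 clusters of G20 (14.98%), 13522 of 68049 in G35 (19.87%) and 13000 of 57710 in G45 (22.53%). HuR replicate 1 had 2104 among 39351 (5.347%) and HuR replicate 2 had 140792 among 1513157 (9.305%). The share was therefore lower in both HuR replicates than in each of the slices. The difference of the mean shares was -11.8 percentage points (exact permutation test over the 5 libraries, two-sided p = 0.2, adjusted p = 0.393). This is the smallest p that 2 against 3 libraries can give, so no such comparison could pass 0.05. The share of library reads was 1.15% in G20, 14.06% in G35, 13.42% in G45, 4.13% in HuR replicate 1 and 6.36% in HuR replicate 2.

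The label Intergenic covered more than the DNA between genes. Only 36.15% to 46.92% of the clusters with that label, depending on the library, overlapped no gene. Of the rest, some overlapped a gene of the newer annotation on their own strand and others overlapped a gene on the opposite strand alone. The library totals were 38644636 reads in G20, 6187300 in G35, 7539669 in G45, 9525265 in HuR replicate 1, 32111810 in HuR replicate 2 and 35924998 in Total. In HuR replicate 1 each cluster had at least 2 conversion locations, whereas 62.51% to 75.64% of the intergenic clusters of the other libraries had 1. The libraries thus do not share a cluster definition, and the clusters with 1 location do not meet that of the study. All deposited clusters were kept.

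The next sequences are the most-read clusters of HuR replicate 2 of up to 30 bases in the 5 intervals that held the most intergenic clusters, and each lies behind the gene named, on its strand. Only for the PSAT1 cluster is the gene named also the nearest gene. The others are nearer to another gene, on the opposite strand. Sequences are RNA strand, 5′ to 3′, written as hg19 DNA, and capitals mark runs of 5 T, the motif ATTTA and runs of 4 G.
PSAT1, chr9:81001214-81001235, plus strand: ttaataaatattttatttcaag
BUB3, chr10:124941327-124941349, plus strand: ttacacATTTActttcaaatacg
TXNL1, chr18:54251742-54251768, minus strand: tatcaattttattaattttctcaatcg
UFM1, chr13:39060315-39060337, plus strand: atattacaaaactcttttctttg
RPS29, chr14:50026318-50026337, minus strand: cTTTTTattttattaaatag
They had 147, 235, 141, 92 and 70 reads, in the order shown, and 7 to 12 conversion locations each, well above the median of 7 reads in HuR replicate 2. Every one held a single G, and 9 to 14 of its bases were T.

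For comparison, the next sequences are the most-read clusters of up to 30 bases in 3 other intervals, all on chromosome 19. For these, the clusters of each library were joined on their own over gaps of up to 10 kb, and the interval with the most clusters was taken for G20, G35 and HuR replicate 1. The G20 interval began 95 bases behind DYRK1B, a protein kinase. The G35 and HuR replicate 1 intervals began 479 bases behind ZNF460, a zinc finger gene. ENSG00000279541, on the opposite strand, was nearer to the start of both, at 79 bases. None of the printed clusters has the gene named as its nearest gene. The G20 cluster was 5820 bases from a lncRNA gene. The G35 cluster lay 1450 bases behind another lncRNA gene on its strand, and the HuR replicate 1 cluster 189 bases from ENSG00000279541.
G20, chr19:40310015-40310040, minus strand: ggtgctaacGGGGcggtGGGGagatg
G35, chr19:57811209-57811237, plus strand: TTTTTcgttttcttttaTTTTTaatcttg
HuR replicate 1, chr19:57806026-57806050, plus strand: caaatattttatcccactctactag
The G20 cluster had 15 G among its 26 bases, while the G35 cluster had 21 T among its 29 bases. These sequences were picked for their place and read count after the values were seen, and they illustrate single clusters and not the average of a library.

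Intergenic clusters were not all far from genes. The distance to the nearest gene on either strand had a median of 15834.5 bases in G20, 15769 in G35 and 16751 in G45. It was 7170.5 bases in HuR replicate 1 and 9656 in HuR replicate 2. Every 100th base of the gene-free genome, counted on both strands, had a median distance of 18518 bases. By the median, the HuR clusters were thus nearer to genes than the clusters of any slice, and the slices were somewhat nearer than the gene-free genome. Close to genes the slices stood further above the genome. Within 1 kb lay 9.11%, 8.07% and 7.35% of the clusters of G20, G35 and G45, against 5.36% of the genome. HuR replicates 1 and 2 had 14.26% and 11.17% there.

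Within 5 kb of a gene lay 25.81% of the clusters of G20, 25.82% of G35, 24.48% of G45, 42.49% of HuR replicate 1 and 35.35% of HuR replicate 2, against 21.39% of the gene-free genome. The mean of the HuR replicates was 13.6 percentage points above that of the slices (exact permutation test, p = 0.2, adjusted p = 0.393), and with a limit of 1 kb the difference was 4.54 points. Clusters over 100 kb from any gene made up 8.39%, 8.16% and 8.61% in the slices G20, G35 and G45, and 4.80% and 5.94% in HuR replicates 1 and 2. The gene-free genome had 9.96% of its bases there.

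**Figure D1:**
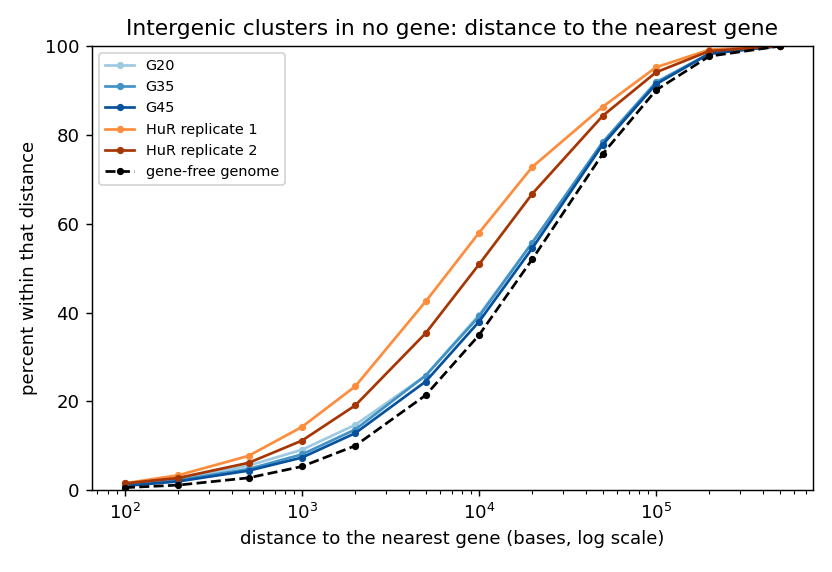
Cumulative percent of intergenic clusters (y axis) within a distance of the nearest gene (x axis, bases, log scale) in the 5 libraries and, dashed, for the gene-free genome. Both HuR curves run above the 3 slice curves, which lie slightly above the genome: at 10000 bases the HuR replicates reach 57.94% and 50.82%, the slices 37.92% to 39.44% and the genome 34.91%.

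The side of the gene differed as well as the distance. A cluster can lie behind the end or in front of the start of its nearest gene, on the same or the opposite strand. Of the 1501 clusters of G20 within 5 kb of a gene, 28.71% lay behind it on its own strand (95% Wilson interval 26.48% to 31.05%). This share was 30.50% of 3492 in G35 (28.99% to 32.05%) and 28.25% of 3182 in G45 (26.72% to 29.84%). It was 48.88% of 894 in HuR replicate 1 (45.62% to 52.16%) and 46.98% of 49775 in HuR replicate 2 (46.54% to 47.41%), while 26.22% of the gene-free genome within 5 kb lies there. These intervals take clusters as independent, although many HuR clusters came in runs on the same strand, so they can be too narrow. Reads also carried no molecular identifiers, and the intervals cover no more than counting error.

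The HuR mean exceeded the slice mean by 18.8 percentage points, and no HuR value overlapped a slice value (exact permutation test, p = 0.2, adjusted p = 0.393). With protein-coding genes alone the difference was 28.5 points. Each of the other 3 positions held fewer HuR clusters than genome. Clusters in front of the start on the opposite strand, where RNA of divergent promoters would lie, made up 14.88% and 15.70% in HuR replicates 1 and 2 against 23.78% of the genome and 21.96% to 23.44% in the slices.

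Total held 6741 clusters in no gene and with no repeat label. It has no region column, so these are not counted among the intergenic clusters. Of the 4014 of them within 5 kb of a gene, 56.98% lay behind it on its strand (55.44% to 58.50%). This share was above that of each of the 5 libraries. The label Intergenic could not be required of the Total clusters, so the sets are not alike and the ranking is only descriptive. Their bases were 29.99% T and 9.08% G.

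The share behind genes fell with distance in HuR and fell less in the slices. In HuR replicate 2 it was 53.33% within 500 bases, 45.29% between 1000 and 5000, 35.10% between 10000 and 50000 and 25.11% over 100000 bases. HuR replicate 1 had 52.76%, 50.51%, 34.84% and 25.74% at the same distances, but 37.23% (29.58% to 45.57%) of 137 clusters between 500 and 1000 bases. The slices had between 23.57% and 33.71% at every distance. Each slice was highest between 500 and 1000 bases, with 33.33%, 33.71% and 28.53% in G20, G35 and G45. Each was lowest over 100000 bases, with 23.57%, 25.93% and 24.40%.

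**Figure D2:**
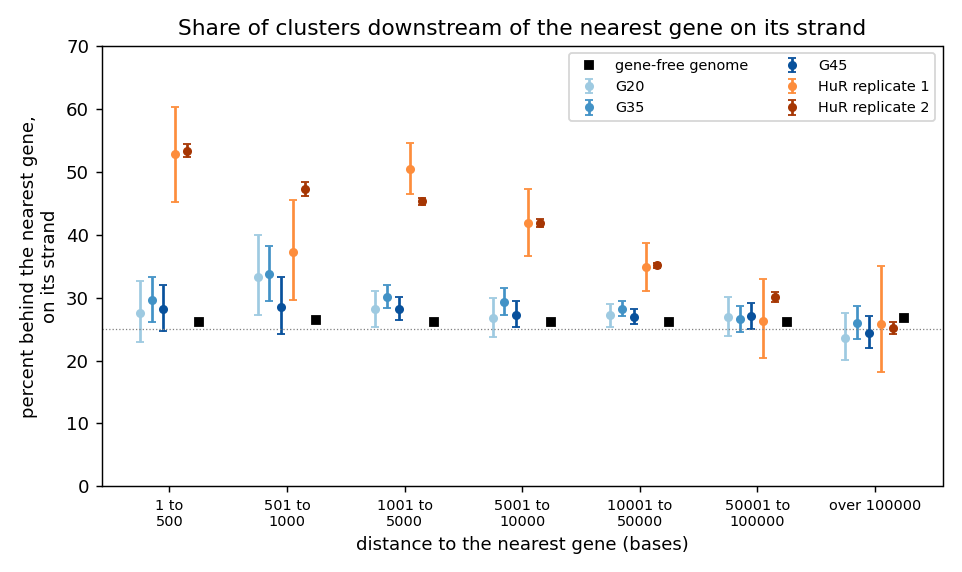
Percent of intergenic clusters that lie behind their nearest gene on its strand (y axis) by distance to that gene (x axis, bases), for the 5 libraries (points with 95% Wilson intervals) and the gene-free genome (squares); the dotted line marks 25%. The HuR points start at 52.76% and 53.33% and come down to 25.74% and 25.11% over 100000 bases. The slice points lie between 23.57% and 33.71%.

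The nearest gene, on any side and strand, was more often protein-coding in HuR. The nearest gene was protein-coding for 42.49% and 40.58% of the clusters of HuR replicates 1 and 2, for 28.15% to 29.55% in the slices and for 25.26% of the gene-free genome. LncRNA genes were nearest for 26.09% and 26.91% in HuR and 34.80% to 35.09% in the slices. Among clusters within 5 kb of a protein-coding nearest gene, 70.85% of 470 in HuR replicate 1 and 61.59% of 27538 in HuR replicate 2 lay behind it on its strand. G20 had 34.00% of 700, G35 36.21% of 1599, G45 31.51% of 1441 and the genome 25.84%.

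The nearest genes also differed in their reads in Total. A gene was counted as covered when Total had at least 10 reads per kb of it. Over all intergenic clusters the nearest gene was covered for 34.46% and 23.97% in HuR replicates 1 and 2, for 9.14% to 10.60% in the slices and for 7.05% of the genome. Of the clusters within 5 kb behind a gene on its strand, 76.20% in HuR replicate 1 and 57.27% in HuR replicate 2 followed a covered gene. In the slices this was 33.64% (G20), 32.77% (G35) and 26.81% (G45), and it was 11.81% for the genome. Behind the end on the opposite strand the HuR shares were 13.64% and 13.17%, close to the slices at 11.08% to 12.29%. In front of the start on the same strand the order was that of the first position, with 53.65% and 27.20% in HuR and 14.93% to 19.63% in the slices. In front of the start on the opposite strand the shares were 9.02% and 17.91% in HuR and 12.06% to 15.25% in the slices.

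HuR clusters came in long runs. Intergenic clusters of all libraries on one strand were joined over gaps of up to 10 kb. Intervals with 10 or more clusters of the same library held 47.11% of the clusters of HuR replicate 2 and 17.06% of HuR replicate 1, but 0.17%, 0.56% and 0.08% of G20, G35 and G45. HuR replicate 2 had many more clusters than any other library, and the size of the runs moves with that number.

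The 5 most populated intervals all began within 1 kb of the end of a protein-coding gene, on the strand of that gene. The first lay behind PSAT1, an enzyme of serine synthesis, on the plus strand of chr9:80945626-81484542, 617 bases from the end of the gene. It held 1081 clusters, of which 1037 were of HuR replicate 2, 12 of HuR replicate 1, 22 of G35, 8 of G45 and 2 of G20. The second began 8 bases behind BUB3, a mitotic checkpoint protein, at chr10:124929991-125115179 on the plus strand. It held 821 clusters, with 732 of HuR replicate 2, 64 of HuR replicate 1, 14 of G35, 7 of G45 and 4 of G20.

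The third began 20 bases behind TXNL1, a thioredoxin-like protein, at chr18:54007159-54264420 on the minus strand, with 493 clusters. UFM1, a ubiquitin-like modifier, was followed from 136 bases on by 471 clusters at chr13:38937892-39107086 on the plus strand. RPS29, a protein of the small ribosomal subunit, was followed from 36 bases on by 427 clusters at chr14:49715535-50037666 on the minus strand. HuR replicate 2 gave 475, 464 and 417 of these, and HuR replicate 1 gave 0, 0 and 2. Each slice gave between 0 and 12 clusters in these 3 intervals.

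These intervals were chosen as runs of clusters on 1 strand, nearly all of HuR replicate 2, so its excess on that strand was fixed by the choice. The absence of clusters of HuR replicate 1 was not an absence of reads. Reads were counted over all groups that overlap an interval, and groups inside genes that lie in the interval were not removed. Counted so, HuR replicate 1 had 433 reads on the TXNL1 strand and 96 on the opposite strand of that interval. Behind UFM1 it had 228 against 96. Behind PSAT1 it had 942 against 189, behind BUB3 2036 against 48 and behind RPS29 521 against 86. Total had 2831 reads against 312 behind PSAT1, 3854 against 29 behind BUB3, 1105 against 35 behind TXNL1, 398 against 19 behind UFM1 and 853 against 34 behind RPS29. In HuR replicate 1 and in Total, which added few or no clusters to the choice, reads on the strand of the gene exceeded those on the opposite strand in all 5 intervals.

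The slices showed the same strand in these intervals with fewer reads. Slice clusters on that strand were part of the joining, so these counts are not free of the choice. They also include groups inside genes that lie in the intervals. The joined clusters of G35 behind PSAT1 held 156 reads. G20 had 517 reads on the strand of PSAT1 and 50 on the other, G35 315 and 190, and G45 264 and 103. Behind BUB3 the reads were 423 and 30 in G20, 194 and 30 in G35, and 240 and 59 in G45. In each of the other 3 intervals too, each slice had more reads on the strand of the gene.

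The clusters of HuR replicate 2 reached far from the gene. Their median distance from the end of PSAT1 was 167544 bases and the most distant lay 539510 bases from it. The joining took no account of genes in between, so a run need not be unbroken from the gene named. A plus-strand pseudogene, ENSG00000270627, lay inside the PSAT1 interval and ended 16636 bases before chr9:81221091. Behind BUB3 the median was 64055.5 bases and behind UFM1 74616. Within 100 kb of the gene lay 74.04% of the clusters behind BUB3, 70.47% behind UFM1, 58.32% behind TXNL1, 45.32% behind RPS29 and 34.81% behind PSAT1.

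**Figure D3:**
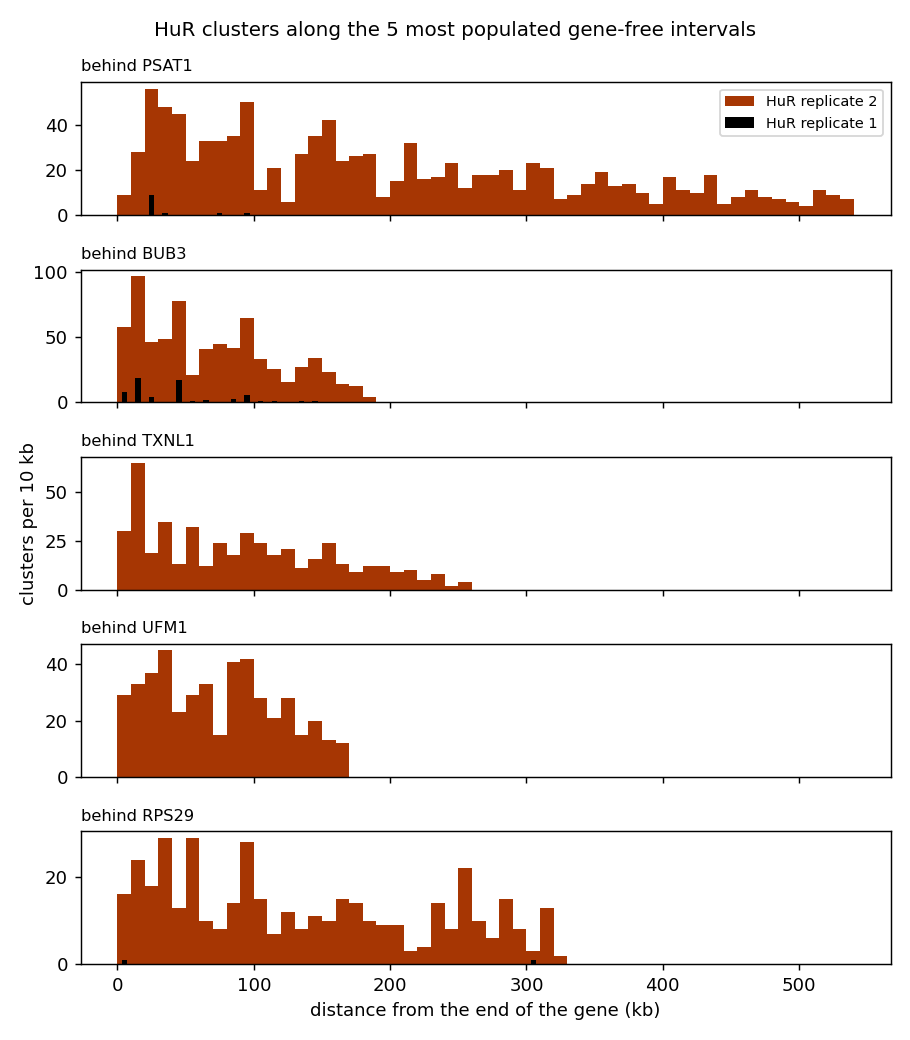
Intergenic clusters per 10 kb (y axis) by distance from the end of the gene (x axis, kb) in the 5 most populated intervals, for HuR replicate 2 (wide bars) and HuR replicate 1 (narrow bars). Behind PSAT1 the clusters of HuR replicate 2 run on to 539510 bases, and behind BUB3 they are densest at 10 to 20 kb, with 97 clusters, and end at 185178 bases. Other genes can lie inside an interval, as a plus-strand pseudogene does behind PSAT1.

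When the clusters of each library were joined on their own, the BUB3 interval broke up, and 31 of the 64 clusters of HuR replicate 1 there stayed in its first part. By this joining the most populated interval of HuR replicate 1, behind ZNF460 at chr19:57805916-57815591, held 66 clusters, and one 78 bases behind ZNF226, another zinc finger gene, at chr19:44682612-44703986 held 41. Intervals behind CDK1, the kinase that drives entry into mitosis, and POLR3K, a subunit of RNA polymerase III, held 21 and 20. By the same joining the region behind ZNF460 also held the most clusters of G35 (18) and of G45 (10), whereas with all libraries joined the PSAT1 interval held the most of G35 (22). In the ZNF460 interval 40.60% of the bases of HuR replicate 1 were T, and 41.68% and 51.99% of those of G35 and G45. In G20 the interval behind DYRK1B had 10 clusters with 50.89% G, and one behind RRP1, a nucleolar protein, had 9 with 42.91% G. The intervals of one library were chosen by their number of clusters, so these values describe them and are not a test.

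Chromosome 19, where ZNF460 and ZNF226 lie, had 209 clusters of HuR replicate 1, or 12.95 per Mb of gene-free sequence, against 1.955 over all chromosomes. Of these, 66 and 41 lay in the short intervals behind ZNF460 and ZNF226, so the density is not that of the chromosome as a whole. With chromosome Y left out, the density of chromosome 19 was 15.1 times that of the chromosome with the lowest, and HuR replicate 2 had a ratio of 2.81. In the slices the ratio of highest to lowest, without Y, was 1.52 to 2.03. HuR replicate 1 had the fewest clusters.

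The bases of the clusters differed between the proteins. T made up 29.27% of the bases in G20, 31.09% in G35, 31.57% in G45, 36.74% in HuR replicate 1 and 41.20% in HuR replicate 2. G made up 30.45%, 27.86%, 27.31%, 20.73% and 14.90% in the same order. Windows of 20 bases in the gene-free genome, both strands counted, had 29.93% T and 20.07% G. The slice clusters were richer in G than these windows with about the same T, and HuR replicate 2 was richer in T with less G.

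The HuR mean exceeded the slice mean by 8.33 percentage points in T and lay below it in G, with a difference of -10.7 points (exact permutation tests, p = 0.2, adjusted p = 0.393 for each). No HuR replicate overlapped the slices in either base when each cluster counted once. Weighted by reads, the G difference was -6.34 points (exact permutation test, p = 0.4). Cluster length also moved with the protein, with medians of 18 bases in each slice, 20 in HuR replicate 1 and 22 in HuR replicate 2. The part of length in the base shares was not tested.

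The motif TTTTT, searched on the strand of the cluster, was in 1.75% of the clusters of G20, 4.05% of G35, 3.70% of G45, 9.08% of HuR replicate 1 and 23.84% of HuR replicate 2. Gene-free windows held it in 4.83% at 18 bases, 5.42% at 20 and 6.03% at 22. ATTTA, the core of AU-rich elements, was in 1.12%, 2.15% and 2.01% of the slice clusters and in 6.04% and 10.16% of the HuR clusters, with 3.21% to 4.10% in windows. GGGG was in 10.69%, 9.09% and 7.63% of the slice clusters and 6.70% and 6.39% of the HuR clusters, with 3.32% to 4.11% in windows. Both U-rich motifs were rarer in the slices than in windows of the genome and more frequent in HuR, whereas GGGG was above the windows in every library.

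AATAAA, the poly(A) signal, was in 0.14% of the clusters of G20 and HuR replicate 1 and in 0.33% to 1.20% of the others, below its 1.60% to 2.05% in windows. TGTA, the core of Pumilio sites, was in 8.40% to 9.08% of the clusters of the slices and of HuR replicate 1 and in 3.72% of HuR replicate 2, with 6.995% to 8.76% in windows. A match describes letters in the cluster and not a bound site.

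HuR clusters that also had reads of a GFP slice were closer to slice clusters in their bases than the other HuR clusters were. In HuR replicate 1, 1296 of 2104 (61.60%) overlapped a group of at least 1 slice and held 98.35% of the reads at its intergenic clusters. They had 35.39% T and 24.91% G, a median distance of 10399 bases from genes, and 36.83% (32.49% to 41.39%) of those within 5 kb were behind a gene on its strand. The other 808 had 38.80% T and 14.38% G, a median distance of 4102.5 bases, and 60.99% (56.38% to 65.40%) of those within 5 kb were behind a gene on its strand.

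In HuR replicate 2, 14540 clusters (10.33%) overlapped a slice and held 41.50% of the reads at its intergenic clusters. Their T was 35.60% and their G 24.35%, against 41.83% and 13.85% in the other 126252. Their position did not follow, since 45.24% (43.90% to 46.58%) and 47.18% (46.72% to 47.65%) of those within 5 kb were behind a gene on its strand. The base difference was thus in both replicates and the difference in position was large in replicate 1 alone. These splits are over clusters of one library, which are not replicates, and no test was made. Clusters with slice reads are places that the slices cover too, so their closeness to slice clusters follows in part from the split.

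**Figure D4:**
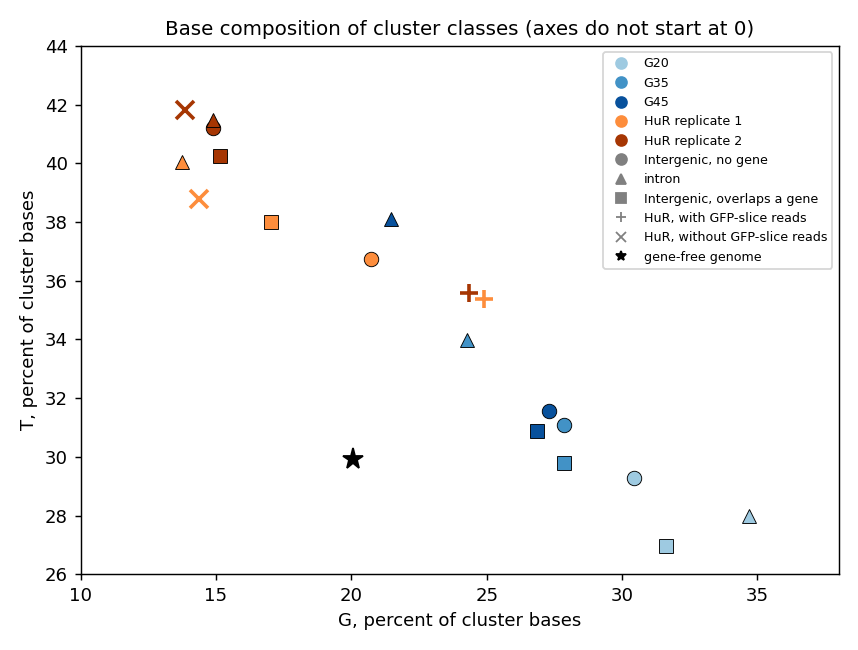
Percent of bases that are T (y axis) and G (x axis) in intergenic clusters in no gene (circles), intron clusters (triangles) and clusters labelled Intergenic that overlap a gene (squares) of the 5 libraries, with HuR clusters split by reads in a GFP slice (plus and cross) and the gene-free genome (star). The slices lie at lower right and HuR at upper left, and the HuR clusters with slice reads lie between them at 24.91% and 24.35% G.

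Intron clusters had a similar spread over the libraries. Their T ran from 28.00% in G20 to 41.49% in HuR replicate 2, and T of the intergenic clusters differed from it by -2.35 percentage points on average (exact sign-flip permutation test over 5 libraries, p = 0.188, adjusted p = 0.393). The smallest p of this test is 0.0625. G differed by 2.45 points (p = 0.313, adjusted p = 0.458, exact). The median length of the intergenic clusters was shorter than that of intron clusters in 5 of 5 libraries, by 1.6 bases on average (exact p = 0.0625, adjusted p = 0.275). Against clusters with the label Intergenic that overlap a gene, T differed by 0.79 points and G by 0.54 (exact p = 0.25 and 0.75, adjusted p = 0.393 and 0.838).

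Conversions at the intergenic clusters numbered 84.2 events per 100 reads in G20, 94.5 in G35, 86.2 in G45, 61.2 in HuR replicate 1 and 99.1 in HuR replicate 2. The difference of the HuR and slice means was -8.15 (exact permutation test, p = 0.8, adjusted p = 0.838), and the HuR replicates lay on both sides of the slices. A few clusters weighed on these sums. The 10 clusters with the most reads held 21.16%, 19.93% and 16.59% of the reads at the intergenic clusters of the slices, 22.995% in HuR replicate 1 and 6.28% in HuR replicate 2. Without them the values were 89.2, 90.2, 84.0, 72.7 and 99.6 events per 100 reads.

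Many of the deep clusters had a mean close to 100 or 200 conversion events per 100 reads. How the events were spread over single reads was not examined. Among clusters with 100 or more reads, 48.62% of 580 in G20, 53.22% of 902 in G35 and 48.04% of 1099 in G45 had 100 events per 100 reads within 3, or 200 within 6. In HuR replicates 1 and 2 this was 37.65% of 324 and 36.36% of 1265. Further deep clusters had almost none, 14.48%, 11.31%, 15.56%, 16.36% and 8.70% in the same order. Of the deep intron clusters, 36.61% to 51.60% in the slices and HuR replicate 1 had means close to 100 or 200, and 16.78% of 6175 in HuR replicate 2.

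The cluster with the most reads in G35, G45 and HuR replicate 2 was on the minus strand of chromosome 3, at position 31079982, 123193 bases from the nearest gene, hsa-mir-466. It had 17131 reads in G20, 47291 in G35, 44724 in G45, 2617 in HuR replicate 1, 38260 in HuR replicate 2 and 1 in Total. Its conversions were 199.5 to 199.8 per 100 reads in the 5 libraries, which is 2 in nearly every read, the most that the mapping allowed. A cluster on the plus strand of chromosome 5, at position 107772088 and 18371 bases from a lncRNA gene, had 11020, 24181, 19141, 369 and 12341 reads in the same order and none in Total. It had 99.73 to 99.98 conversions per 100 reads.

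On chromosome 3 at position 55110637, 2053 bases behind CACNA2D3, a calcium channel subunit, the plus strand had 8387, 19403, 26673, 3021 and 15242 reads in the same order and none in Total, with 0.53 to 0.89 conversions per 100 reads. In Total, 0 reads allow a level of up to 0.0835 RPM (reads per 1e6 library reads), which is that of 3 reads. A cluster on chromosome 2 at position 101396145, 32292 bases from a lncRNA gene, went the other way, with 36850 reads in Total and 23771 in G20, and 92 to 1228 in the other 4 libraries. The most-read cluster of HuR replicate 1, on chromosome 1 at position 47215759 and 6954 bases from a pseudogene, had 20280 reads there with 0.52 conversions per 100, and 896 to 3267 reads in the other 4 libraries. The next 2 of that replicate, on chromosome 2 at positions 206520917 and 225014306, had 11274 and 10856 reads there, 133 to 4577 in the other 4 libraries and 6.76 and 14.97 conversions per 100 reads in HuR replicate 1. Further sites were named for the highest smallest read count among intergenic clusters found in all 5 libraries, and they are not all such sites. They were on chromosome 1 at positions 178652657, 5688 bases from MIR4424, and 22441121, 2667 bases from WNT4, on chromosome 10 at 16020581 and on chromosome 17 at 67901228. Each had 2624 reads or more in every library and 79 or fewer in Total. Conversions numbered 18.13 to 44.32 per 100 reads at the first of them and at most 0.83 at the other three. Reads of a near-identical sequence from another locus or organism would map with such fixed changes too. Whether the reads of these deep clusters were made from the positions they mapped to was not tested, which limits what the conversions, the sharing and the bases of deep clusters stand for.

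Clusters with more reads were more often shared between libraries. All other 4 libraries had reads on the same strand at 53.82% of the clusters of G20, 26.56% of G35, 30.82% of G45, 35.50% of HuR replicate 1 and 2.67% of HuR replicate 2. Among clusters with 5 to 9 reads these shares were 30.58%, 9.26%, 8.34%, 10.71% and 0.68%. Among those with 100 or more reads they were 96.72%, 88.25%, 97.18%, 92.90% and 63.24%. The opposite strand was covered in another library at 0.15% to 1.81% of the clusters.

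**Figure D5:**
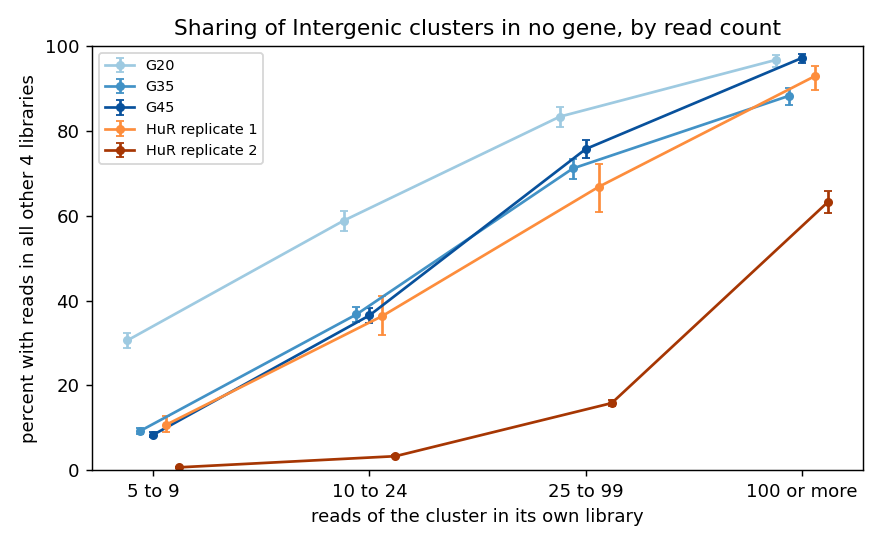
Percent of intergenic clusters with reads in all other 4 libraries (y axis, with 95% Wilson intervals) by the read count of the cluster in its own library (x axis). The share rises with reads in every library, from 30.58% to 96.72% in G20 and from 0.68% to 63.24% in HuR replicate 2.

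The clusters of the slices had reads in HuR replicate 2 about as often as in other slices. By the study's own counts, each HuR replicate had more sites than any slice. A library with more sites offers more places to overlap. The shares were not adjusted for this, so they do not compare the proteins alone. At clusters of G20, 75.64% had reads in G35, 83.13% in G45, 63.39% in HuR replicate 1 and 80.78% in HuR replicate 2. At clusters of G45, 60.05% had reads in G20, 54.25% in G35 and 60.19% in HuR replicate 2. Of the clusters of HuR replicate 1, 86.31% had reads in HuR replicate 2 and 43.30% to 50.71% in each slice. Of those of HuR replicate 2, 18.39% had reads in HuR replicate 1 and 5.34% to 7.33% in each slice. The share found in libraries of the other protein differed by -33.4 percentage points between the HuR and slice means (exact permutation test, p = 0.4, adjusted p = 0.55), and by -59.1 without HuR replicate 1 and -7.80 without HuR replicate 2, with 61.60% in HuR replicate 1 inside the range of the slices, 55.11% to 84.54%.

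HuR replicate 1 had 561 clusters (26.66%) that were intergenic clusters in all 5 libraries. Their bases were 31.57% T and 29.73% G, their median distance from genes was 18602 bases, and 33 of the 133 within 5 kb were behind a gene on its strand. By definition they were also intergenic clusters of every slice, so a likeness to slice clusters in these measures was fixed by the choice.

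Total reads lay on 26.15% of the clusters of G20, 14.29% of G35, 14.95% of G45, 46.86% of HuR replicate 1 and 13.85% of HuR replicate 2. The 2 HuR replicates were on both sides of the slices (difference of means 11.9 percentage points, exact permutation test, p = 0.8, adjusted p = 0.838). Fewer intergenic clusters than intron clusters had Total reads in 5 of 5 libraries, by -11.0 points on average (exact sign-flip permutation test, p = 0.0625, adjusted p = 0.275). With Total groups of 5 or more reads this was -2.45 points. More intergenic than intron clusters were found in all other 4 libraries, in 5 of 5 libraries and by 13.5 points (same p). Against Intergenic clusters that overlap a gene these differences were -6.26 and 4.50 points, each in the same direction in 5 of 5 libraries (same p). Without HuR replicate 1 the differences in sharing were 8.88 points against intron clusters and 2.28 against Intergenic clusters that overlap a gene.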

How the data were processed

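PAR-CLIP sites of HEK293 cells were compared over 5 libraries, and Total was used for RNA levels. According to the methods of the study, the authors removed adapters, mapped 50 base reads to hg19 with Bowtie (up to 2 mismatches and 10 places) and ran PARalyzer on reads with a single best place and 0, 1 or 2 T-to-C changes. What the authors deposited were raw counts of reads, conversion locations and conversion events per site, which the authors did not normalize. Versions and the handling of PCR duplicates are not given in the sources used here. Positions were read as 1-based, and the sequences of all 175234 clusters were identical to GRCh37.

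Genes were those of GENCODE release 44 mapped to GRCh37. Clusters on chrM (30 to 82 labelled Intergenic per library) were left out as members. Distances run from the nearest base of a cluster to the nearest gene on either strand. Libraries were shared at a cluster when a group overlapped it by 1 bp on its strand. Intervals are 95% Wilson intervals that take clusters as independent. Exact permutation tests, two-sided, took libraries as units, and p-values were adjusted (Benjamini-Hochberg) over 22 comparisons. Sites named are the 3 with the most reads per library, those in all 5 libraries with the highest smallest read count, and the 5 intervals with the most clusters; the intervals of single libraries and all sequences were chosen after values were seen. The members, lists and comparisons were chosen with earlier results of these data known. Interval and permutation code was tested on simulated data. Python 3.11.15, pandas 2.3.3, SciPy 1.17.1, statsmodels 0.14.6 and pysam 0.24.0 were used.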

Additional observations from a re-analysis of the deposited data

How the results depend on the processing

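The 22 comparisons were recomputed under 13 settings, 1 of which (only clusters of fewer than 100 reads) was chosen after seeing the data. The main difference in median length from Intergenic clusters that overlap a gene was 0 and has no direction (0 to -0.4 bases under 8 alternatives). Of the 191 values of the other 21 comparisons, 174 kept their direction, 31 of them moved by over 1.5 times, and 17 reversed, in 6 comparisons. Since no test here can reach 0.05, the p-values say nothing of stability. Conversion events per 100 reads, HuR minus slices, became 3.31 with all gene-free clusters whatever their label, 10.8 without HuR replicate 1, 2.92 as a mean per cluster and 8.14 below 100 reads. Against intron clusters the events became 2.53 with clusters of 5 or more reads and 2 or more locations, 1.31 without HuR replicate 1, 5.97 as a mean per cluster and 6.58 below 100 reads. Against Intergenic clusters that overlap a gene they became 4.53 without the 10 clusters with the most reads, 0.0292 for clusters at least 5 kb from genes, 0.505 with protein-coding genes alone, 3.45 as a mean per cluster and 3.83 below 100 reads. The share with Total reads, HuR minus slices, became -4.61 percentage points without HuR replicate 1. Against Intergenic clusters that overlap a gene, the T difference became -1.16 weighted by reads, and the G difference -1.03 weighted by reads and -0.25 without HuR replicate 1. The cause of these reversals was not tested. Leaving out 1 HuR replicate at a time gave -27.1 to 10.8 events for HuR minus slices, -4.61 to 28.4 points for the share with Total reads, -0.52 to 1.31 events against intron clusters and -0.25 to 0.73 points for G against Intergenic clusters that overlap a gene. It gave -59.1 to -7.80 points for the share found with the other protein. With groups of 5 or more reads the share with Total reads differed by 5.95 points (HuR minus slices), by -2.45 against intron clusters and by -3.90 against Intergenic clusters that overlap a gene. Weighted by reads, T and G against intron clusters differed by -4.51 and 0.98 points. No paired analysis of HuR against the slices was possible because only the HuR group has replicate numbers above 1 and the slices are single libraries. The comparisons with the other cluster classes used differences within each library.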
